A study of Drosophila melanogaster with 4 samples.

Results

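The genes described here pattern the neuroectoderm of the *Drosophila melanogaster* embryo, select neuroblasts through proneural and Notch function, run the asymmetric division of neuroblasts, and mark early neurons and glia. They were chosen by name, 32 genes in all, and each was read from its brightest probe set. The annotation used gave 24 of the 32 a probe set, out of 10844 genes named on the array. The other 8, *vnd*, *rho*, *sim*, *Dl*, *N*, *scrt*, *E(spl)m8-HLH* and *E(spl)mgamma-HLH*, were not analysed here. RNA came from whole embryos 3 to 5 h after egg laying, kept at 25 °C. In the mutant group the mothers carried *how* germline clones and homozygous *how* embryos were picked out by fluorescence with a GFP balancer, so that both maternal and zygotic HOW, a STAR-family RNA-binding protein, were missing. The reference embryos were wild type for *how* and came from the yw stock, so the groups differ in stock as well as in *how*. There were 2 one-colour Affymetrix arrays per genotype, each with RNA pooled from 5 preparations of about 100 embryos, so single embryos and single preparations were not compared.

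The ventral neuroectoderm of the fly embryo is divided into columns by homeodomain genes, and Sox genes act across it. Within it, proneural basic helix-loop-helix (bHLH) genes give groups of cells the ability to become neuroblasts, and Notch signalling, through bHLH repressors of the *E(spl)* complex, restricts that fate to single cells. A neuroblast then divides unequally: an apical complex with Inscuteable orients the division, and Miranda carries Prospero and Brat into the daughter cell, while Numb lowers Notch activity in the cell that inherits it. Neuronal and glial differentiation genes come on later.

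The values are MAS5 signals, a linear brightness per probe set. Changes are given as log2 of the *how* mutant signal minus log2 of the wild-type signal, with limma's standard error (SE) or 95% interval. The threshold for a call was an adjusted p of 0.05 (Benjamini-Hochberg, over all probe sets tested). Over the whole array 255 of 8380 probe sets passed (3.04%). Taking only each gene's brightest probe set, 3.24% of 6855 genes passed, with 1.87% higher and 1.37% lower in the mutant. All 24 neural genes lay above the filter on dim probe sets, a mean signal of 39.5.

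None of the 24 genes passed limma's test in either direction, set against 3.24% of all genes tested. At an unadjusted p under 0.05 there were 4, *numb*, *insc*, *H* and *mira*, which is 16.7% against 16.4% of all genes. The log2 changes ran from -0.47 to 0.79 with a median of 0.11, against 0.00 over all genes. In 22 of 24 genes, 91.7%, the groups differed by less than 1.5-fold, against 84.3% of all genes. The 95% interval lay within 2-fold in both directions for 19 of the 24 and within 4-fold for all 24, so smaller differences than these remain possible. In whole embryos, fewer cells of a type and less RNA per cell cannot be told apart.

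**Figure D1:**
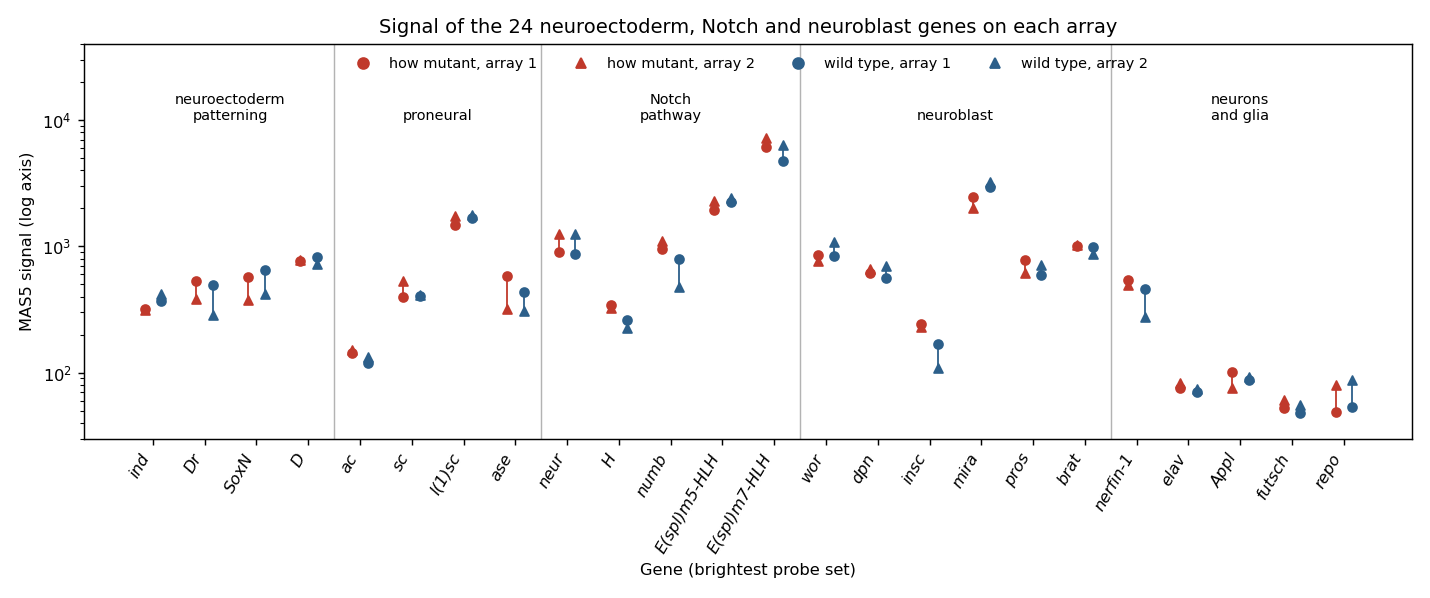
MAS5 signal on a log axis for each of the 24 genes, grouped by role, with *how* mutant arrays in red to the left of wild-type arrays in blue; circles are array 1, triangles array 2, and a line joins the 2 arrays of a group. The groups overlap for 15 of the 24 genes. Both mutant arrays lie above both wild-type arrays for 7 genes (*ac*, *H*, *numb*, *insc*, *brat*, *nerfin-1* and *elav*) and below for 2 (*ind* and *mira*).

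For 9 of the 24 genes, 37.5%, mutant and wild-type arrays did not overlap, against 47.8% of all genes tested. Of these 9, both mutant arrays were higher for 7 (24.4% of all genes) and lower for 2 (23.4% of all genes). The difference between group means was larger than the gap between the arrays of either group for 6 genes, 25.0%, namely *ind*, *ac*, *H*, *insc*, *mira* and *elav*, against 35.0% of all genes. The larger of the 2 gaps had a median of 0.35 on the log2 scale both in the 24 genes and in all genes. In this measure of spread between replicates the neural genes and the whole array were alike.

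**Figure D2:**
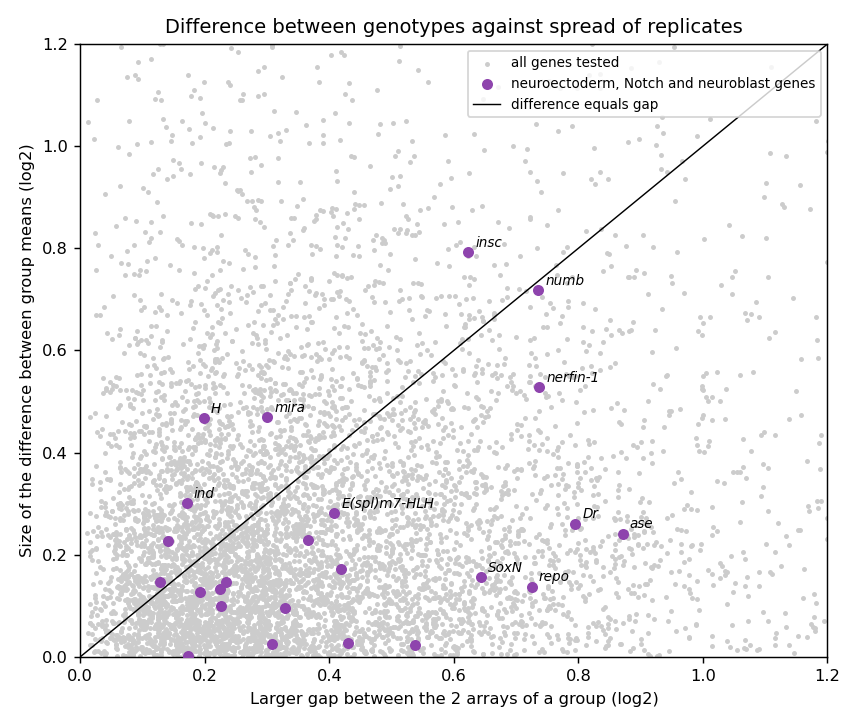
Size of the difference between the *how* mutant and wild-type means (vertical, log2) against the larger gap between the 2 arrays of a group (horizontal, log2), for the 24 neural genes in purple and all 6855 genes tested in grey; both axes end at 1.2, and genes beyond are not drawn. Of the 24 genes 6 lie above the line on which difference and gap are equal.

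Among the column and Sox genes of the neuroectoderm, *ind*, the homeobox gene of the intermediate column, had signals of 320 and 315 in *how* mutant embryos, against 369 and 415 in wild type. Both mutant arrays were below both wild-type arrays, with a log2 change of -0.30 (95% interval -0.68 to 0.08; limma adjusted p = 0.42). *Dr*, the msh homeobox gene of the lateral column, had signals of 530 and 385 in the mutant and 497 and 286 in wild type. *SoxN* read 574 and 378 in the mutant and 649 and 415 in wild type. For both of these genes array 1 of each group was the brighter, and the groups overlapped. *D* (*Dichaete*), the other Sox gene, had 763 and 781 in the mutant and 819 and 726 in wild type, a log2 change of 0.00 (95% interval -0.33 to 0.33).

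The proneural genes *ac*, *sc*, *l(1)sc* and *ase* belong to the achaete-scute complex on the X chromosome, where *ac*, *sc* and *l(1)sc* follow each other directly and 1 other protein-coding gene separates *l(1)sc* from *ase*. *ac* had signals of 143 and 150 in the mutant, against 119 and 132 in wild type. *sc* had 394 and 527 in the mutant and 401 and 408 in wild type, and *l(1)sc*, the proneural gene most widely used by early neuroblasts, had 1480 and 1731 in the mutant and 1665 and 1765 in wild type. *ac* was the 1 gene of the complex whose arrays did not overlap, and its log2 change of 0.23 had an interval that spans 0 (-0.31 to 0.76). *ase*, which neuroblasts themselves express, had 583 and 319 in the mutant and 435 and 306 in wild type, so its arrays differed more within the mutant group, by 0.87 on the log2 scale, than the groups did, by 0.24. The 4 log2 changes ran from -0.10 to 0.24, and none passed.

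In the Notch group, *numb*, whose product antagonises Notch, had signals of 947 and 1092 in *how* mutant embryos, against 797 and 479 in wild type. The means were 1019 ± 103 in the mutant and 638 ± 225 in wild type (SD, n = 2 each). Both mutant arrays were higher, but the 2 wild-type arrays lay 0.73 apart on the log2 scale, about as far as the groups did. The log2 change was 0.72 ± 0.24 (SE; 95% interval 0.17 to 1.26), with a limma adjusted p of 0.184. The size rested on the wild-type arrays: it was 0.35 without wild-type array 2 (limma adjusted p = 0.403) and 1.09 without wild-type array 1 (limma adjusted p = 0.0356), each fit with 1 wild-type array that is assumed to vary like the mutant arrays.

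*H* (*Hairless*), the gene for the corepressor partner of Su(H), had signals of 344 and 324 in the mutant, against 259 and 225 in wild type. The arrays of each group lay close together, and the log2 change was 0.47 ± 0.18 (SE; limma adjusted p = 0.249). A second, dimmer probe set of *H* overlapped, with 224 and 217 in the mutant and 270 and 156 in wild type. *neur*, the gene for the ubiquitin ligase that activates Delta, had 894 and 1249 in the mutant and 863 and 1253 in wild type, a log2 change of 0.02. Array 2 was the brighter in both groups there, whereas in its second probe set (340 and 157 in the mutant, 470 and 150 in wild type) array 1 was.

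The Notch target genes *E(spl)m5-HLH* and *E(spl)m7-HLH* encode bHLH repressors and lie in the *E(spl)* complex on 3R, with 1 protein-coding gene between them. *E(spl)m7-HLH* had signals of 6105 and 7225 in the mutant, against 4745 and 6293 in wild type, a log2 change of 0.28 (95% interval -0.16 to 0.72). *E(spl)m5-HLH* had 1932 and 2272 in the mutant and 2236 and 2404 in wild type, a log2 change of -0.15 (95% interval -0.49 to 0.19). The groups overlapped for both genes. Another 6 genes of the complex were tested from the list of other Notch pathway genes. Over all 8, 5 of them bHLH genes and 3 of the Bearded family, the log2 changes ran from -0.18 to 0.35 with a median of -0.08, and none passed. *E(spl)mbeta-HLH* had the highest value, with 2323 and 2522 in the mutant and 1874 and 1934 in wild type (0.35 ± 0.13, SE; limma adjusted p = 0.26). *gro*, the neighbouring gene for the corepressor that E(spl) proteins recruit, had 2095 and 1923 in the mutant and 1885 and 2006 in wild type.

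**Figure D3:**
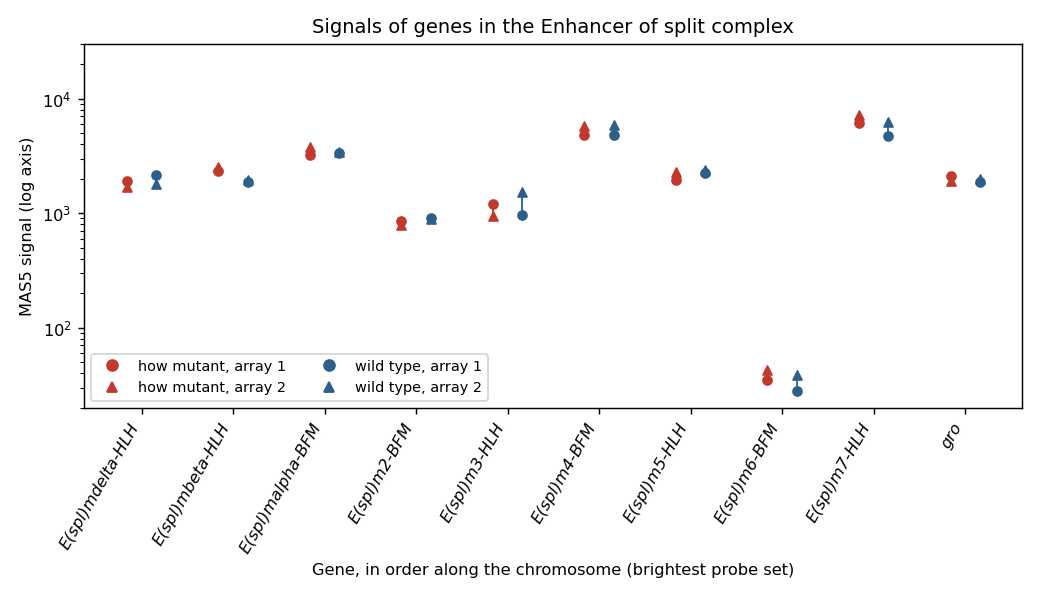
MAS5 signal on a log axis for 9 genes of the Enhancer of split complex and for *gro*, in their order along the chromosome, with *how* mutant arrays in red to the left of wild-type arrays in blue; circles are array 1, triangles array 2. *E(spl)mbeta-HLH* is higher on both mutant arrays, *E(spl)m2-BFM* lower, and *E(spl)m6-BFM* was too dim to be tested.

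The neuroblast genes held the largest difference in each direction. *insc*, which encodes the apical adaptor Inscuteable, had signals of 240 and 230 in the mutant, against 168 and 109 in wild type. Both mutant arrays were higher, and the wild-type arrays lay further apart than the mutant ones. The log2 change was 0.79 ± 0.26 (SE; 95% interval 0.20 to 1.39), with a limma adjusted p of 0.179. It was 0.48 without wild-type array 2 and 1.10 without wild-type array 1, and passed in neither case. *mira*, the gene for the adaptor Miranda, had 2471 and 2006 in the mutant, against 2966 and 3201 in wild type. Its means were 2239 ± 329 in the mutant and 3084 ± 166 in wild type (SD, n = 2 each), a log2 change of -0.47 ± 0.16 (SE; limma adjusted p = 0.188). A second, dim probe set of *mira* read 55.0 and 90.1 in the mutant and 64.2 and 106 in wild type, where array 2 was brighter in both groups and the groups overlapped.

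The cargoes of Miranda differed less. *pros*, a homeodomain factor that starts differentiation, had 772 and 615 in the mutant and 588 and 706 in wild type. *brat*, a translational repressor, had 1000 and 1022 in the mutant and 990 and 866 in wild type; its mutant arrays were above both wild-type arrays, by 0.13 on the log2 scale between means. Of the transcription factors of neuroblasts, the Snail-family gene *wor* had 846 and 771 in the mutant and 833 and 1073 in wild type (log2 change -0.23). The bHLH gene *dpn* had 614 and 660 in the mutant and 562 and 696 in wild type (log2 change 0.03). The groups overlapped for *pros*, *wor* and *dpn*.

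**Figure D4:**
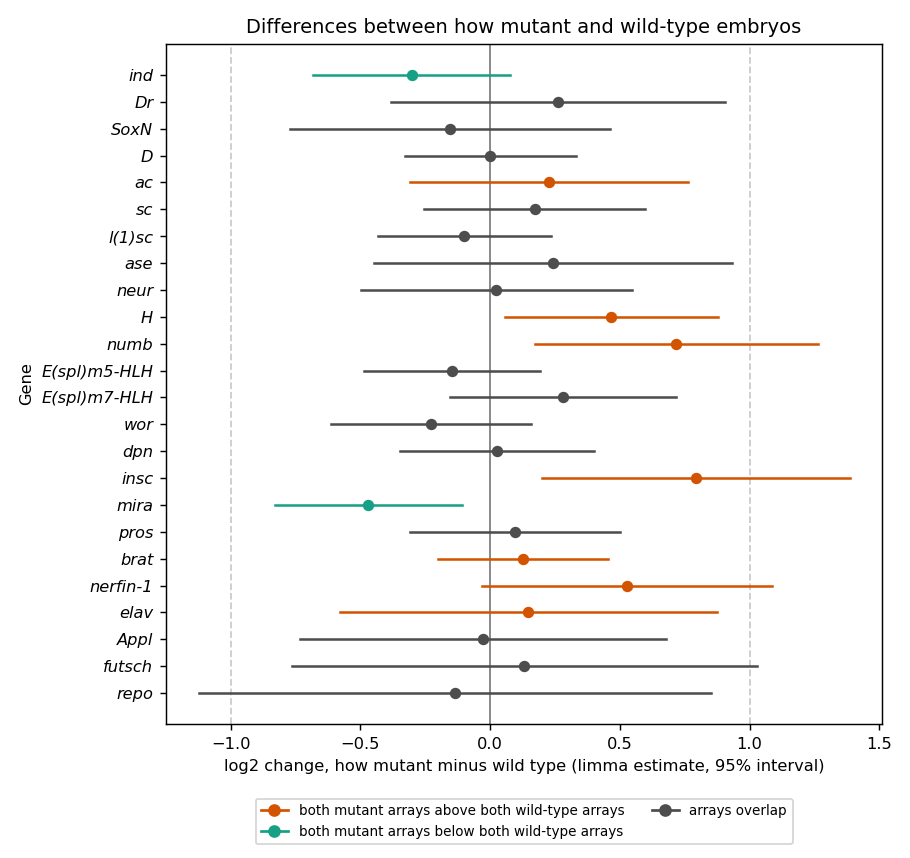
Log2 change (*how* mutant minus wild type) of each of the 24 genes with its 95% interval from limma; orange marks genes with both mutant arrays above both wild-type arrays, green those with both below, grey those that overlap, and dashed lines mark 2-fold. The intervals of *H*, *numb*, *insc* and *mira* leave out 0, and none of the 24 passed after adjustment.

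Among the genes of early neurons and glia, *nerfin-1*, a zinc finger gene of neuronal precursors, had signals of 537 and 494 in the mutant, against 461 and 277 in wild type. The arrays did not overlap, but the wild-type arrays lay 0.74 apart on the log2 scale and the groups 0.53 (limma adjusted p = 0.338). Without wild-type array 2 the difference was 0.16, and without wild-type array 1 it was 0.90, and it passed in neither case. In its second probe set the log2 change was 0.11 and the groups overlapped. The other 4 genes were dim, all under the 60th percentile of mean signal (135). *elav*, the pan-neuronal RNA-binding protein gene, had 76.0 and 83.0 in the mutant and 69.7 and 73.9 in wild type. *Appl*, the neuronal amyloid precursor homologue, had 102 and 75.7 in the mutant and 86.9 and 92.1 in wild type, and *futsch*, a microtubule-associated protein gene of axons, had 52.4 and 61.1 in the mutant and 47.8 and 55.8 in wild type. *repo*, the homeobox gene of glia, had 48.5 and 79.9 in the mutant and 53.3 and 88.0 in wild type, so array 2 was the brighter in both groups. These 4 changes lay between -0.14 and 0.15, but their intervals were wide, from -1.12 to 0.85 for *repo*. Besides *futsch*, whose other 2 probe sets were too dim to be tested, 5 genes had a second probe set, and in *SoxN* and *neur* it gave a change of the opposite sign (0.17 against -0.16, and -0.20 against 0.02).

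Other genes of the same processes were taken from 4 lists with 94 different tested genes. Of these, 2 rose (1.87% of all genes tested did) and 0 fell (1.37% of all genes did), and 11 had an unadjusted p under 0.05, 11.7% against 16.4% of all genes. By list this share was 4.35% for Notch, 4.76% for patterning, 14.8% for neuroblasts and 21.7% for early neurons and glia. In the last list both mutant arrays were higher for 10 of 23 genes and lower for 2, against 24.4% and 23.4% of all genes. The median log2 change was 0.05 for 23 other Notch pathway genes, 0.01 for 21 other neuroectoderm patterning genes, -0.15 for 27 other neuroblast genes and 0.27 for 23 other genes of early neurons and glia. In the Notch list none passed, and the genes with the smallest p were *E(spl)mbeta-HLH* and the LIM-domain-binding cofactor *Chi* (-0.28, limma adjusted p = 0.401). In the patterning list none passed either: *hry*, a bHLH repressor gene, had a log2 change of -0.57 (limma adjusted p = 0.186), and *da*, the common dimer partner of the proneural proteins, one of -0.27 (limma adjusted p = 0.389).

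The 2 genes that rose were *sens* and *Gli*. *sens* (*senseless*), a zinc finger gene of sensory organ precursors that acts with proneural proteins, had signals of 397 and 350 in *how* mutant embryos, against 138 and 117 in wild type. Both mutant arrays were far above both wild-type arrays, with means of 373 ± 32.9 in the mutant and 128 ± 14.8 in wild type (SD, n = 2 each). The rise was 2.93-fold (95% interval 2.12 to 4.04), a log2 change of 1.55 ± 0.20 (SE; limma adjusted p = 0.00663). The call was lost without mutant array 1 (log2 change 1.46, limma adjusted p = 0.0648) and when dim probe sets were kept (limma adjusted p = 0.126). *phyl* and *ato*, genes of sensory precursors named after their values were seen, had log2 changes of -0.15 and 0.10 and did not pass. The proneural genes *ac*, *sc*, *l(1)sc* and *ase* did not pass, and whether the change of *sens* differed from theirs was not tested.

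*Gli*, whose product Gliotactin acts at septate junctions of epithelia and glia, had signals of 1803 and 1518 in the mutant, against 1040 and 737 in wild type. Its log2 change was 0.92 ± 0.19 (SE), which passed narrowly (limma adjusted p = 0.0497). It no longer passed under quantile normalization (0.0605), without the mean-variance trend (0.199) or with dim probe sets kept (0.257). Nor did it without mutant array 1 (0.284), mutant array 2 (0.148) or wild-type array 2 (0.139), all limma adjusted p-values. *tap*, a neuronal bHLH gene named after its values were seen, had 234 and 187 in the mutant and 145 and 61.2 in wild type, a log2 change of 1.15 that did not pass (limma adjusted p = 0.202). It was 0.53 without wild-type array 2 (limma adjusted p = 0.403) and 1.77 without wild-type array 1 (limma adjusted p = 0.0394).

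**Figure D5:**
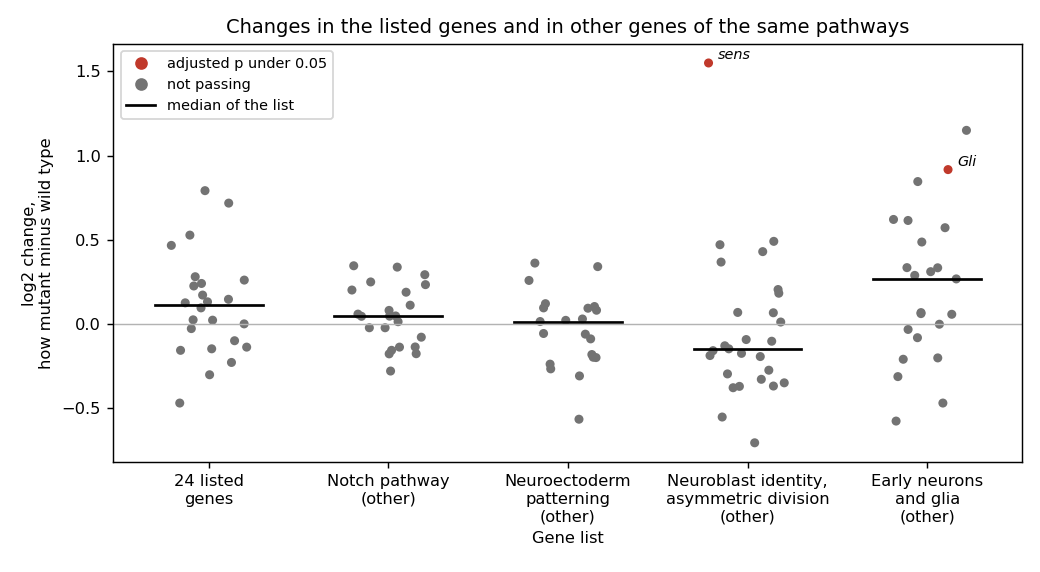
Log2 change (*how* mutant minus wild type) of the 24 genes and of the tested genes in 4 lists of other pathway genes; each point is a gene, red points passed limma's test, and a black line marks the median of the list. *sens* at 1.55 and *Gli* at 0.92 are the genes that passed.

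Some markers of other tissues differed between the groups in the same RNA. Over all genes tested 1.87% rose and 1.37% fell, the shares to set beside each count here. Of 10 tested genes of cuticle and late epidermis 8 fell and 0 rose, and the summed signal of all 11 was 675 and 734 in the mutant, against 4472 and 4485 in wild type. Of 6 tested muscle genes 4 fell and 0 rose, with summed signals of all 8 of 4998 and 5354 in the mutant and 5512 and 5949 in wild type. *Act87E*, an actin gene that did not pass, made up 4740 and 5071 of these sums in the mutant and 3587 and 4007 in wild type. *Act87E* and *sls* were the 2 tested muscle genes with a log2 change above 0. That of *sls* was the highest, at 1.11, and *sls* did not pass either. All 6 tested muscle genes had an unadjusted p under 0.05 in limma, against 16.4% of all genes. Their arrays did not overlap, against 47.8% of all genes, with 4 lower and 2 higher in the mutant. Of 5 tested genes in a list of maternal transcripts 2 rose (*dhd* and *pgc*) and 0 fell, and clearance of maternal RNA was not tested. The summed signals of all 8 listed genes were 2721 and 2715 in the mutant and 3017 and 2175 in wild type. *stau*, which is also in the list of other neuroblast genes, made up 1202 and 1289 of these sums in the mutant and 2054 and 1257 in wild type. Of the 5 log2 changes 3 were above 0 and 2 below it, the lowest at -0.42. The call for *pgc* (limma adjusted p = 0.0497) was lost under quantile normalization (0.0525) and a robust fit (0.0508), with dim probe sets kept (0.187) and without any 1 array (0.109 to 0.273). None of 5 early mesoderm genes, 7 amnioserosa genes, 5 glial genes, 3 late neuron genes or 3 blastoderm genes passed. All 5 early mesoderm genes had log2 changes below 0, from -0.75 to -0.05, with a median of -0.09. Those of the 7 amnioserosa genes ran from -0.36 to 0.82, with 2 above 0 and 5 below. The log2 changes of the 3 blastoderm genes ran from -0.84 to -0.12, with a median of -0.34. The summed signal of the 5 late neuron markers was 245 and 256 in the mutant and 249 and 236 in wild type. Of these, *nSyb* and *brp* were too dim to be tested, and *elav*, *Appl* and *futsch* were the others. The summed signal of the 5 glial markers was 1562 and 1538 in the mutant and 1476 and 1447 in wild type, most of it from *gcm* and *loco*. *gcm* had 710 and 672 in the mutant and 680 and 638 in wild type. *loco* had 585 and 519 in the mutant and 568 and 414 in wild type. *repo*, *moody* and *wrapper* were dimmer, with log2 changes of -0.14, -0.20 and 0.57. The part of these tissue differences, and of any difference in embryo age, in the values of the neural genes was not tested.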

How the data were processed

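The authors deposited linear intensity values, 1 for each probe set on each of 4 arrays, made with MAS5 per the submitters' processing notes (version not given in the sources used here). Leaving out the top and bottom 2%, every array had a mean of 250.04, so no further normalization was applied. Of 14010 probe sets 44 were controls and were left out. Signals under the 5th percentile (3.38) were set to it, log2 was taken, and probe sets under the 40th percentile of mean log2 signal were dropped. A linear model (limma 3.58.1, R 4.3.3; eBayes with trend; 2 against 2 arrays; prior degrees of freedom 5.80) was fitted over all 8380 probe sets; the code was tested on simulated data. With 2 against 2 an exact permutation test cannot go below p = 0.333. The number of arrays limits the precision; the labels speak of independent samples. Names come from the platform annotation, updated by Entrez ID to RefSeq Release 6 plus ISO1 MT (12394 of 12443 probe sets with 1 symbol matched; 327 had several and 1196 none). No probe set was named *how*, so the genotype was not checked.

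The genes, lists and tests were chosen with earlier results of these data known. Named are the 24 genes, the list genes that passed or, where none did, those with the 2 smallest p in a list, and others as stated.
Settings varied in turn were a replicate block, 2 other scalings, 2 other filters, 50 added to each signal, other variance settings, a looser threshold and leaving out each array.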

Additional observations from a re-analysis of the deposited data

How the results depend on the processing

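The count of called genes among the 24 was 0 with quantile normalization, median centring, no filter, the 60th percentile filter, 50 added, no trend, a robust fit, an adjusted p under 0.1 (limma; 4 at an unadjusted p under 0.05) and when any probe set of a gene counted. It reached 3 in a fit with a replicate block and 0 to 1 without an array (*numb* without wild-type array 1). The labels share replicate numbers but do not say that a number marks a batch. Array deviations from their group mean had r = 0.183 for same-numbered arrays, and array 2 differed from array 1 in the same direction in both groups for 16 of 24 genes (57.1% of all genes). With the replicate block *numb* (0.72, limma adjusted p = 0.00927), *mira* (-0.47, 0.0179) and *insc* (0.79, 0.0396) passed, 12.5% against 9.92% of all genes.

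Over the whole array 255 calls became 825 with the block, 401 at the looser threshold, 95 without the trend, 0 with no filter (1782 at an unadjusted p under 0.05 in limma) and 87 to 153 without an array. The 2 calls among other pathway genes became 7 with the block (*tap* among them, limma adjusted p = 0.0125), 1 under quantile normalization, 1 without the trend, 0 with no filter (limma) and 0 to 3 without an array. The 9 genes without overlap became 8 under both scalings and 15 to 18 without an array, since 3 arrays overlap less easily than 4. The median of 0.11 stayed between 0.078 and 0.17.

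Sign changes came in 20 of 284 comparisons, all in genes within 0.26 of 0. *D* became -0.014 with median centring. Leaving out each array in turn gave -0.242 to 0.188 for *Appl*, -0.085 to 0.087 for *D*, -0.136 to 0.659 for *Dr*, -0.478 to 0.165 for *SoxN*, -0.194 to 0.677 for *ase*, -0.128 to 0.179 for *dpn*, -0.212 to 0.014 for *l(1)sc*, -0.246 to 0.292 for *neur*, -0.068 to 0.260 for *pros*, -0.499 to 0.226 for *repo* and -0.038 to 0.381 for *sc*; the cause was not tested. Low signal limits *elav*, *Appl*, *futsch* and *repo*, which the 60th percentile filter left out.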
